A study of Mus musculus with 7 samples.

Results

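A set of interferon-stimulated effector genes, 10 of the 32285 genes in the count files, were followed in gentamicin-damaged mouse utricles with and without virally delivered Fos. They were Ifit1, Ifit2, Ifit3, Ifitm3, Bst2, Isg15, Usp18, Rsad2, Ifi44 and Rtp4, and each was found by its Ensembl identifier. The list was drawn up with the fold changes of this comparison already known, so the values of the 10 genes are given as a description with no test. All 10 were among the 17155 genes with enough reads to be tested.

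RNA was sequenced from wild-type mouse utricles, a vestibular sensory organ of the inner ear, taken at postnatal day 2 and kept as whole-organ explants in serum-free medium. Every explant of both groups was damaged with 2 mM gentamicin, an aminoglycoside antibiotic that is toxic to hair cells, for 24 h and was collected at day 5 after injury. The Gent+Fos OE group (4 libraries) also received AAV-PHP.eB, an adeno-associated virus capsid, carrying mouse Fos behind the CMV promoter, which is active in many cell types. The Gent group (3 libraries) is labelled with gentamicin alone. Each library was made from a pool of 12 utricles, and no undamaged utricles were among the samples used here. The study's methods speak of 3 replicates per condition where the labels list 4 and 3, and all 7 libraries were used. The labels give no virus for the Gent group, the methods name an EGFP control vector, and the deposited names of the Gent counts hold letters that can be read as shRNA. It is not settled whether Gent explants met any virus, so exposure to a virus and Fos itself cannot be told apart in this comparison.

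Interferons are secreted proteins that cells make when they sense viral or misplaced nucleic acid. Type I and type III interferons bind receptors that activate the JAK kinases, and a complex of STAT proteins with IRF9 then enters the nucleus and binds a DNA motif called the interferon-stimulated response element (ISRE). The genes switched on in this way encode proteins that block virus entry, translation, replication and release, together with proteins that dampen the response.

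The ISRE is shown first, because it is the sequence through which this response is read. Windows of 250 bases before to 50 bases after an annotated RefSeq start (GRCm38.p6, the assembly also called mm10) were used for 8 of the 10 genes, and those of Usp18 and Rtp4 were not analysed here. The windows were searched on both strands for the core of the ISRE, the letters GAAA followed by any 2 bases and GAAA again, which read TTTC, any 2 bases and TTTC on the other strand. A match was found for 6 of these 8 genes (Ifit1, Ifit3, Ifitm3, Bst2, Isg15 and Rsad2), with 12 matches in all, some of them overlapping. Of all 32851 RefSeq windows of this length, 3.44% held such a core. The match nearest to the start, with any that overlap it, is printed for each of the 6 genes, 5′ to 3′ on the gene's own strand with the core in capitals.
Ifit1, plus strand, chr19:34640795-34640822: cagtctcagTTTCAGTTTCtcactgctg
Ifit3, plus strand, chr19:34583398-34583425: ttaagtctgTTTCAGTTTCtactttcct
Ifitm3, minus strand, chr7:141010724-141010751: aaaattcagGAAAAGGAAActtctgaga
Bst2, minus strand, chr8:71537580-71537609: attccagGAAAATGAAACTGAAAggctgca
Isg15, minus strand, chr4:156200871-156200900: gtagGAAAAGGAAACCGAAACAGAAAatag
Rsad2, minus strand, chr12:26456554-26456581: tggtccaacTTTCATTTTCagaaaacag

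The 2 overlapping cores of Bst2 lay at bases -130 to -115 and the 3 overlapping cores of Isg15 at bases -78 to -57, counted from the start. Ifit1 and Ifit3 each had a further core, at bases -104 to -95 and -156 to -147, and Ifitm3 had a further core at bases 20 to 29. Ifi44 and Ifit2 had no match in their windows. The letters TGANTCA, bound by AP-1, the family of dimers that includes Fos, were present for Ifit3, Ifitm3 and Rsad2 and in 7.81% of all windows. The letters TTCNNNGAA, known as the gamma-activated site (GAS), were present for Ifit2, Ifitm3 and Bst2 and in 8.3% of all windows. A match of letters is a description of the sequence and does not show that a factor was bound.

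**Figure D1:**
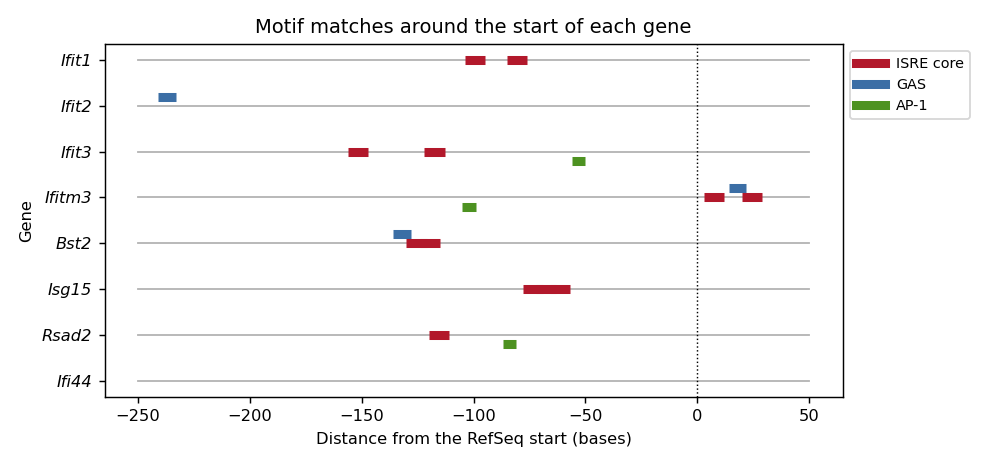
Position of motif matches around the RefSeq start of the 8 genes with a window, in bases from the start on the x axis. Each mark is 1 match on either strand. The ISRE core stands between bases -156 and 29 in 6 genes, and the AP-1 letters stand before the start in 3 genes.

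Depth and labels were examined before the genes. Each library held 27879889 to 34335214 counts for 20254 to 21623 genes with at least 1 count. Levels are given as TMM-normalized CPM, the reads of a gene scaled to a common library size. Fos rose from 38.2 ± 3.18 CPM in the Gent libraries (SD, n = 3) to 154 ± 8.46 with the Fos virus (SD, n = 4). The log2 fold change was 2.01 (SE 0.13, adjusted p = 0.000142 by the quasi-likelihood test of edgeR, Benjamini-Hochberg). The libraries labelled with the Fos virus thus held more Fos RNA. This difference cannot show whether the Gent explants received gentamicin alone, a control vector or an shRNA against Fos. Hair cell markers (9 of 9 detected) summed to 704 to 893 CPM against 609 to 757 in Gent, and supporting cell markers (9 of 9 detected) to 2492 to 3223 against 1935 to 2362, so both cell types of the utricular epithelium were represented. A gene was called when its adjusted p was under 0.01 and its absolute log2 fold change over 0.25. By this rule 71 genes (0.414%) were called, with 23 at a higher and 48 at a lower level in Gent+Fos OE. Gent replicate 2 stood apart in a trend with transcript length. Its Spearman correlation across genes between exonic length and the deviation from the gene's mean was -0.50. That correlation was -0.22 in Gent replicate 3, 0.15 in Gent replicate 1 and 0.12 to 0.33 in the Gent+Fos OE libraries, so it differed between the groups as well. Of the 10 genes of the set, 8 were shorter than the median exonic length of all tested genes (4084 bp). A fit with a correction for length is given below.

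The 10 genes were lower in Gent+Fos OE without exception, beside 50.1% of all tested genes. Their median log2 fold change was -1.28, against -0.00 over all tested genes. Of the 10, 6 were called lower (Ifit1, Ifit3, Bst2, Isg15, Usp18 and Rtp4), where 0.28% of all tested genes were called lower, and nothing is read from this count because the list was chosen on this comparison. In 7 of the 10 the groups did not overlap, which held in this direction for 12.2% of all tested genes, and in 7 the log2 fold change was -1 or lower, which held for 2.29%. Ifit2, Rsad2 and Ifi44 were the 3 genes with overlapping groups, and Ifitm3 was separate but not called. The count of called members was 3 without Gent+Fos OE replicate 1, 1 without replicate 2, and 0 without replicate 3, without replicate 4 or without Gent replicate 3. The number of all genes called was then 21, 24, 5, 19 and 15. In those 3 fits with 0 members called, all 10 had an unadjusted p under 0.05, as had 2951, 3715 and 3752 of all tested genes in either direction, and the choice of the members on these libraries leaves nothing to read from it. DESeq2 on all libraries called 7, beside 1.56% of the genes it tested. At an adjusted p limit of 0.05, edgeR on all libraries called 7 as well, beside 1.19%. In a bulk sample, fewer cells that express a gene and less RNA of it per cell cannot be told apart.

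**Figure D2:**
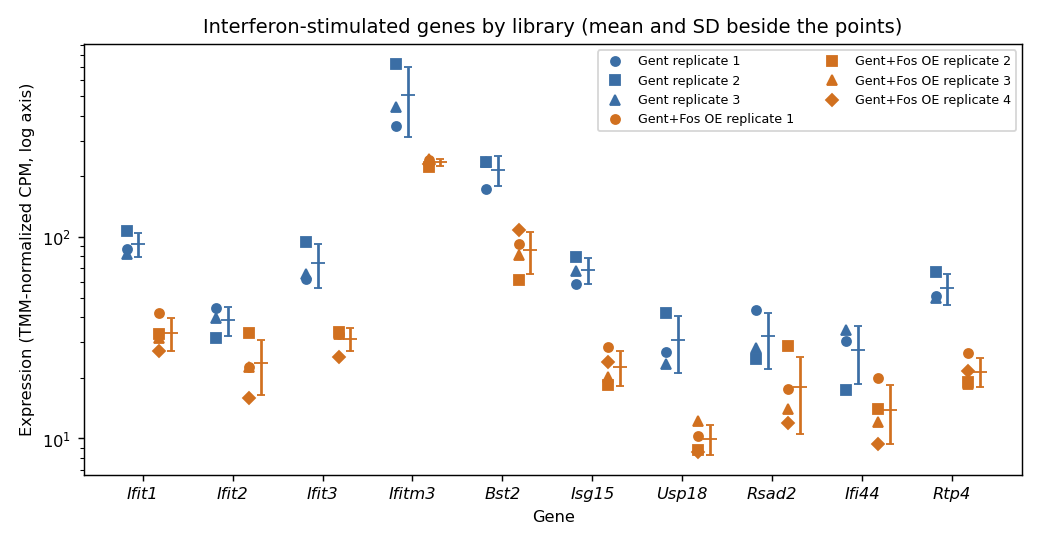
TMM-normalized CPM of the 10 genes on a log axis, 1 point per library, with the mean and SD of each group beside the points (Gent+Fos OE, n = 4, and Gent, n = 3). The groups are separate in 7 genes and overlap in Ifit2, Rsad2 and Ifi44.

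The IFIT proteins bind foreign RNA in the cytoplasm and hold back its translation, and the genes Ifit1, Ifit2 and Ifit3 stand in 1 cluster on chromosome 19. Ifit1 (ENSMUSG00000034459, chr19:34640871-34650009, plus strand) recognizes RNA that lacks the methylated cap of mouse mRNA. Its levels were 41.8, 32.9, 31.5 and 27.1 CPM in Gent+Fos OE replicates 1 to 4 and 87.3, 107 and 82.4 CPM in Gent replicates 1 to 3. All 4 Gent+Fos OE libraries lay below all Gent libraries, and the means were 33.3 ± 6.16 (SD, n = 4) and 92.1 ± 12.8 CPM (SD, n = 3). The log2 fold change was -1.47 (SE 0.16), a level 2.76 times higher in Gent.

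Ifit3 (ENSMUSG00000074896, chr19:34583531-34588731, plus strand) binds Ifit1 and steadies it in the human complex. Its levels were 33.0, 33.9, 33.1 and 25.3 CPM in Gent+Fos OE and 61.7, 94.7 and 65.4 CPM in Gent. The groups were separate, with Gent replicate 2 the highest library, and the log2 fold change was -1.24 (SE 0.17). Ifit3 has a near-identical neighbour, Ifit3b. Reads that fit both genes equally are not counted without a multi-mapping option, so the levels of both may be too low. Ifit3b itself averaged 8.03 ± 1.92 CPM (SD, n = 4) against 18.4 ± 0.625 (SD, n = 3), with a log2 fold change of -1.19 (SE 0.19, edgeR, Benjamini-Hochberg adjusted p = 0.0130) that was not called.

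Ifit2 (ENSMUSG00000045932, chr19:34550694-34576419, plus strand) binds AU-rich RNA and shields mice from virus infection of the nervous system. Its levels were 22.6, 33.4, 22.7 and 15.8 CPM in Gent+Fos OE and 44.2, 31.7 and 39.7 CPM in Gent. The groups overlapped, since Gent+Fos OE replicate 2 lay above Gent replicate 2, and the log2 fold change was -0.70 (SE 0.22). The other 2 IFIT genes of the locus were close to the limit of detection. Ifit1bl1 lay between 0.570 and 1.04 CPM in Gent+Fos OE and between 0.962 and 1.62 CPM in Gent, with a log2 fold change of -0.71 (SE 0.38, edgeR adjusted p = 0.268). Ifit1bl2 averaged 0.455 ± 0.113 CPM (SD, n = 4) against 0.552 ± 0.0977 (SD, n = 3), with a log2 fold change of -0.28 (SE 0.44, edgeR adjusted p = 0.712). These 2 are similar to Ifit1 in sequence, and reads that fit more than 1 of these genes equally are not counted.

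Ifitm3 and Bst2 are membrane proteins that act on the virus particle itself. Ifitm3 (ENSMUSG00000025492, chr7:141009586-141010770, minus strand) sits in endosomes and hinders the fusion of entering viruses. Its levels were 240.1, 223, 244 and 230.2 CPM in Gent+Fos OE and 355, 725 and 441 CPM in Gent. The 4 Gent+Fos OE libraries lay within a narrow band below all Gent libraries, while Gent replicate 2 stood well above the other Gent libraries. The means were 234 ± 9.71 (SD, n = 4) and 507 ± 193 CPM (SD, n = 3) and the log2 fold change was -1.11 (SE 0.21), which became -0.77 without Gent replicate 2. Ifitm3 belongs to a family of similar genes, and reads that fit more than 1 of them equally are not counted. Ifitm2 averaged 131 ± 8.87 CPM (SD, n = 4) against 218 ± 88.9 (SD, n = 3), with a log2 fold change of -0.74 (SE 0.22, edgeR adjusted p = 0.105) that was -0.35 without Gent replicate 2. Ifitm1 had a log2 fold change of -0.70 (SE 0.26, edgeR adjusted p = 0.153), which was -0.23 without that library.

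Bst2 (ENSMUSG00000046718, chr8:71534255-71537456, minus strand), also called tetherin, holds budding enveloped viruses at the cell surface. Its levels were 92.8, 60.9, 81.2 and 109 CPM in Gent+Fos OE and 173, 235 and 236 CPM in Gent. The groups were separate, with means of 85.8 ± 20.1 (SD, n = 4) and 215 ± 36.5 CPM (SD, n = 3) and a log2 fold change of -1.32 (SE 0.19). Bst2 was the member in which Gent+Fos OE replicate 4 stood highest among its group, whereas that library was the lowest of all 7 for 6 other members.

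Isg15 and Usp18 belong to the ISG15 pathway, in which a small ubiquitin-like protein is joined to other proteins and removed again. Isg15 (ENSMUSG00000035692, chr4:156199455-156200796, minus strand) encodes that modifier. Its levels were 28.5, 18.3, 20.1 and 23.9 CPM in Gent+Fos OE and 58.6, 79.5 and 67.7 CPM in Gent. No library of a group reached the range of the other, and the means were 22.7 ± 4.48 (SD, n = 4) and 68.6 ± 10.5 CPM (SD, n = 3). The log2 fold change was -1.60 (SE 0.17), a level 3.02 times higher in Gent.

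Usp18 (ENSMUSG00000030107, chr6:121245906-121270917, plus strand) encodes the protease that removes ISG15 and, apart from that, a brake on the type I interferon receptor. Its levels were 10.3, 8.73, 12.2 and 8.56 CPM in Gent+Fos OE and 26.9, 41.7 and 23.5 CPM in Gent. The groups were separate, and the log2 fold change of -1.63 (SE 0.21) was the lowest of the 10. Without Gent replicate 2, the highest library, it was -1.35. Of its exonic bases, 4.44% are shared with another gene.

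The enzymes that attach ISG15 were read beside these, with the test over all genes. Ube2l6, the E2 enzyme that passes ISG15 on, fell from 49.8 ± 0.931 (SD, n = 3) to 25.3 ± 2.66 CPM (SD, n = 4), with a log2 fold change of -0.98 (SE 0.13, edgeR, Benjamini-Hochberg adjusted p = 0.00446). Uba7, the E1 enzyme that activates ISG15, averaged 23.0 ± 3.43 CPM (SD, n = 4) against 40.3 ± 2.63 (SD, n = 3), with a log2 fold change of -0.81 (SE 0.15, edgeR adjusted p = 0.0238). The ligase Herc6 had a log2 fold change of -0.56 (SE 0.18, edgeR adjusted p = 0.119). Trim25, a further ligase that can use ISG15, had a log2 fold change of -0.16 (edgeR adjusted p = 0.637). Thus 1 of the 4 conjugation genes was called, beside 0.28% of all tested genes called lower, and the 4 had a median log2 fold change of -0.69. The call of Ube2l6 was not made when any of Gent+Fos OE replicates 1, 2, 3 and 4 or Gent replicate 3 was left out, with log2 fold changes of -1.03 to -0.92 over the 7 fits without 1 library.

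Rsad2, Ifi44 and Rtp4 complete the set. Rsad2 (ENSMUSG00000020641, chr12:26442746-26456452, minus strand) encodes viperin, an enzyme that makes a chain-terminating nucleotide. Its levels were 17.6, 28.7, 14.0 and 11.9 CPM in Gent+Fos OE and 43.5, 24.8 and 28.1 CPM in Gent. Gent+Fos OE replicate 2 lay above Gent replicates 2 and 3, so the groups overlapped, and the log2 fold change was -0.83 (SE 0.29). It was -0.55 without Gent replicate 1 and -1.15 without Gent+Fos OE replicate 2. Cmpk2, a mitochondrial nucleotide kinase gene next to Rsad2, averaged 17.8 ± 4.56 CPM (SD, n = 4) against 33.3 ± 1.10 (SD, n = 3), with a log2 fold change of -0.90 (SE 0.19, edgeR adjusted p = 0.0407).

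Ifi44 (ENSMUSG00000028037, chr3:151730922-151749960, minus strand) encodes an interferon-induced cytoplasmic protein. Its levels were 19.96, 13.9, 12.1 and 9.41 CPM in Gent+Fos OE and 30.6, 17.5 and 34.4 CPM in Gent. The groups overlapped, because Gent replicate 2 lay below Gent+Fos OE replicate 1, and the log2 fold change was -0.99 (SE 0.27). Without Gent replicate 2 it was -1.23.

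Rtp4 (ENSMUSG00000033355, chr16:23520291-23614222, plus strand) encodes a chaperone of receptors that also binds viral RNA. Its levels were 26.5, 19.0, 18.7 and 21.7 CPM in Gent+Fos OE and 50.8, 66.8 and 49.5 CPM in Gent. All Gent libraries lay above all Gent+Fos OE libraries, and the log2 fold change was -1.37 (SE 0.16). Rtp4 shares 13.9% of its exonic bases with another gene. The counting did not use strand, so reads that overlap both genes were not counted and its level may be too low.

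The members were ordered by level per transcript length, as CPM divided by the exonic length in kilobases (RPKM). In Gent, Ifitm3 stood at 748 RPKM, followed by Bst2 at 238, Isg15 at 97.6, Ifit3 at 42.4, Ifit1 at 34.7, Rtp4 at 26.1, Usp18 at 11.0, Ifit2 at 9.81, Rsad2 at 7.41 and Ifi44 at 4.48 RPKM. The library ranges of neighbours overlapped for Ifit3 and Ifit1, for Ifit1 and Rtp4, for Usp18 and Ifit2 and for Ifit2 and Rsad2, and did not overlap for the other neighbours. In Gent+Fos OE the first 6 places were held by the same genes in the same order, from 346 RPKM for Ifitm3 to 10.1 for Rtp4. Ifit2 (6.02 RPKM), Rsad2 (4.16), Usp18 (3.56) and Ifi44 (2.26) followed, and the ranges of neighbours among these overlapped.

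Among the libraries, the mean deviation of the 10 genes from their own means ran from -0.71 to -0.33 (log2) in Gent+Fos OE and from 0.64 to 0.81 in Gent. Gent+Fos OE replicate 4 was the lowest and replicate 1 the highest of its group. Gent replicate 2 was the highest library for 6 members, Gent replicates 1 and 3 for 2 members each. The coefficient of variation of a member had a median of 19.1% in Gent+Fos OE and 20.9% in Gent, beside 12.0% and 21.3% over all tested genes.

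**Figure D3:**
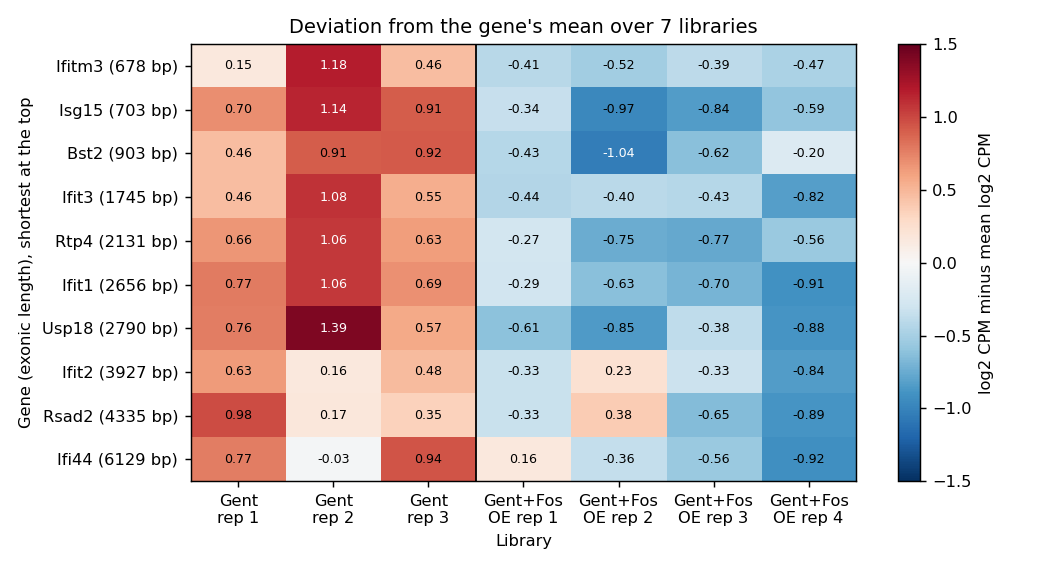
Deviation of each member's log2 CPM from its mean over the 7 libraries, with genes ordered by exonic length and libraries by group. Gent+Fos OE libraries are mostly negative and Gent libraries mostly positive, and Gent replicate 2 differs between the short and the long genes.

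Gent replicate 2 differed between the shorter and the longer members. On the log2 CPM scale, this library lay above the mean of Gent replicates 1 and 3 for the 7 members of up to 2790 bp, from 0.22 in Bst2 to 0.87 in Ifitm3. It lay below that mean for the 3 longest, by a difference of -0.40 in Ifit2 (3927 bp), -0.49 in Rsad2 (4335 bp) and -0.89 in Ifi44 (6129 bp). Over all tested genes the median of the same difference was 0.46 for exonic lengths up to 1000 bp (813 genes), 0.37 for 1000 to 3000 bp (5003 genes) and -0.02 for 3000 to 7000 bp (7710 genes). The 3 longest members are those whose groups overlapped. Without Gent replicate 2, the log2 fold changes of all 10 members remained negative, from -1.48 in Isg15 to -0.77 in Ifitm3, and 7 were called, among 138 genes called in all in that fit. With a correction for gene length, 7 members were called, where 0.554% of all genes were called lower. The part of transcript length in the differences between members and between the groups was not tested.

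**Figure D4:**
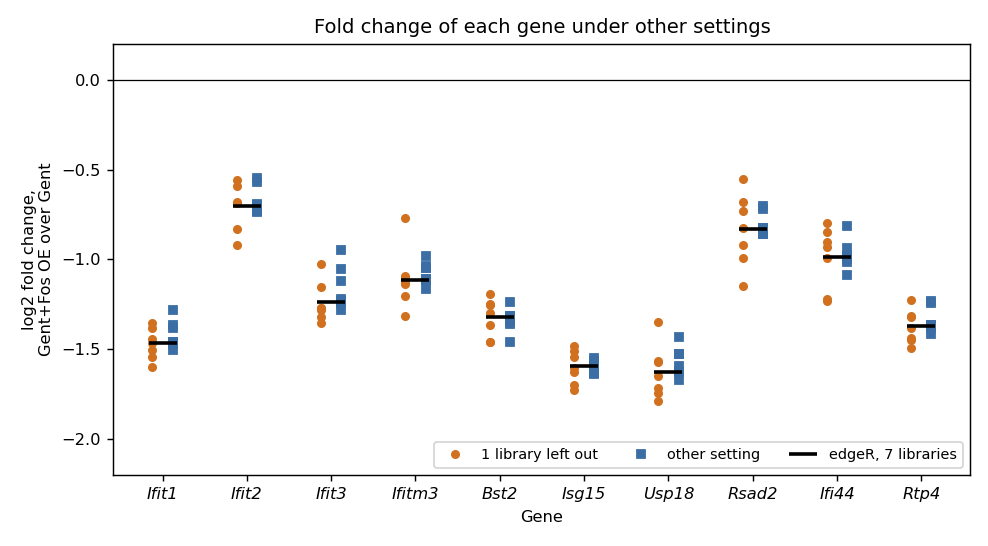
Log2 fold change of each member (Gent+Fos OE over Gent) in the fit reported here and in 16 alternative fits. All values lie below 0, and the widest spreads are those of Ifitm3 and Rsad2.

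Interferon ligands were looked for upstream of these genes. Of 9 ligand genes, Ifna1, Ifna2, Ifna4, Ifne, Ifng, Ifnl2 and Ifnl3 had 0 counts in all 7 libraries, which at 3 counts allows a level of up to 0.0867 to 0.107 CPM per library (counting error only). Reads that fit near-identical copies, as among the Ifna genes, are not counted without a multi-mapping option. That level is therefore a limit only for reads that fit 1 gene. Ifnb1, the first interferon made by many infected cells, had 12 counts in all, of which 7 lay in Gent replicate 2, 4 in Gent+Fos OE replicate 2 and 1 in Gent replicate 1. Ifnk, an epithelial type I interferon, had 54 counts in all and a log2 fold change of 0.87 (SE 0.88, edgeR adjusted p = 0.554). No ligand was thus measured at a level at which the groups could be told apart.

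Of the receptors, kinases, transcription factors and feedback genes of the pathway, 23 were tested. Irf7, the factor that amplifies type I interferon production, fell from 70.8 ± 7.54 (SD, n = 3) to 21.8 ± 2.43 CPM (SD, n = 4), with a log2 fold change of -1.70 (SE 0.14, edgeR, Benjamini-Hochberg adjusted p = 0.00056). It was called in each of the 7 fits that left out 1 library, with an adjusted p of 0.00717 at most (edgeR). None of the other 8 STAT and IRF factors was called, and 8 of the 9, Irf7 included, had a negative log2 fold change. Stat2, a part of the complex that binds the ISRE, had a log2 fold change of -0.62 (SE 0.15, edgeR adjusted p = 0.0656) and Irf9 of -0.59 (SE 0.14, edgeR adjusted p = 0.0588).

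None of the 6 receptor subunits was called, 5 of the log2 fold changes were negative, and their median was -0.35, while 5 had an unadjusted p under 0.05 (4 lower and 1 higher), as had 4201 of the 17155 tested genes. The exception was Ifnlr1, the specific chain of the type III interferon receptor and chosen here after its value was seen, at 0.54 (SE 0.16, edgeR adjusted p = 0.104). The kinases Jak1, Jak2 and Tyk2 had 0 calls, 0 with an unadjusted p under 0.05 and a median of 0.06. The 5 feedback genes had 0 calls, 2 with an unadjusted p under 0.05, and a median of -0.22. With DESeq2, 5 of the signalling genes were called, among 600 of the 20975 genes it tested.

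A wider list of interferon-induced effectors was read in the same fit. Of 38 listed genes 35 were tested, 34 had a negative log2 fold change, and the median was -0.62, beside -0.00 over all genes. In all, 24 of the 35 were lower at an unadjusted p under 0.05, where 13.4% of all tested genes were, and 4 were called lower, beside 0.28%. Ifi27l2a, a mitochondrial interferon-induced protein, fell from 30.1 ± 6.38 (SD, n = 3) to 9.12 ± 2.87 CPM (SD, n = 4), with a log2 fold change of -1.73 (SE 0.25, edgeR, Benjamini-Hochberg adjusted p = 0.00773). Xaf1, a pro-apoptotic protein, fell from 23.5 ± 2.58 (SD, n = 3) to 8.69 ± 1.52 CPM (SD, n = 4), with a log2 fold change of -1.44 (SE 0.17, edgeR adjusted p = 0.00316). Epsti1, which is induced in macrophages and epithelia, fell by 1.42 on the log2 scale (SE 0.20, edgeR adjusted p = 0.00647). Lgals3bp, a secreted glycoprotein that binds galectins, fell from 356 ± 27.1 (SD, n = 3) to 173 ± 26.3 CPM (SD, n = 4), with a log2 fold change of -1.04 (SE 0.14, edgeR adjusted p = 0.00647).

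The number of calls depended on which library was left out. The count was 3 without Gent replicate 1, 1 without Gent+Fos OE replicate 1, 0 without Gent+Fos OE replicate 2, 3 or 4 or without Gent replicate 3, and 10 without Gent replicate 2. Over all genes these fits called 73, 21, 24, 5, 19, 15 and 138, in the order given. In the fits with 0 calls, 21 to 24 of the effectors had an unadjusted p under 0.05 (edgeR), as had 2840 to 3752 of all tested genes, and DESeq2 on all 7 libraries called 14, among 600 genes in all. This list was drawn up with earlier results of these data known and is not independent evidence of a direction.

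**Figure D5:**
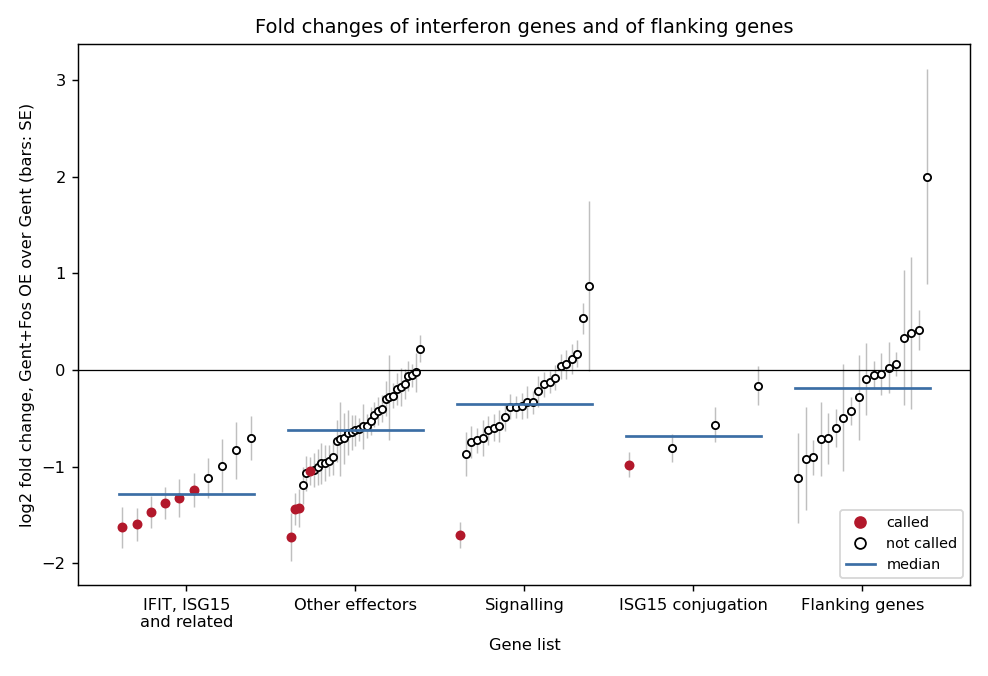
Log2 fold change (Gent+Fos OE over Gent, bars are SE) of the 10 members, the wider effector list, the signalling genes, the ISG15 conjugation genes and the genes flanking the members. Red points are called and white points are not, and the line is the median of each list, from -1.28 in the members to -0.19 in the flanking genes.

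The genes next to the members on the chromosome were compared to see how far the lower level reached. Of 18 flanking genes 0 were called by edgeR, and 1 was called by DESeq2, which called 1.56% of the genes it tested lower. At an unadjusted p under 0.05, 5 were lower, beside 13.4% of all tested genes. Their median log2 fold change was -0.19. The 5 were Cmpk2 beside Rsad2 and Ifitm1 beside Ifitm3, both given above, Ifitm6 beside Ifitm3 at -1.12 (SE 0.47, edgeR adjusted p = 0.182), Mvb12a beside Bst2 at -0.60 (SE 0.20, edgeR adjusted p = 0.124), and AW011738 beside Isg15 at -0.42 (SE 0.14, edgeR adjusted p = 0.127). Cmpk2, Ifitm1 and Ifitm6 belong to interferon-induced or IFITM genes themselves. Mvb12a was -0.27 without Gent replicate 2.

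Genes with the most similar pattern over the 7 libraries were found by Pearson's r with the mean standardized log2 CPM of the members, as a description with no test. The 5 highest were Zbp1 (0.990), which senses Z-form nucleic acid, the chemokine Cxcl10 (0.989), Phf11b (0.987), the kinase Prkcd (0.986) and the replicative helicase subunit Mcm6 (0.984). The value is set largely by the difference between the groups, which is shared by every gene that is lower in Gent+Fos OE. After subtracting each group's mean the 5 highest were Safb2 (0.989), Rps6kb2 (0.986), Chia1 (0.979), Acap3 (0.978) and Ext2 (0.976), none of which was in the first set.

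Markers of some other cells differed between the groups as well. The supporting cell sum given above was higher in Gent+Fos OE without overlap (2-sided exact permutation test, p = 0.0286, the smallest p this design allows), but 5 of its 9 markers had a positive and 4 a negative log2 fold change, with a median of 0.08. The gap lay mainly in Otog, a protein of the otolithic membrane and the 1 marker called (23 of the 17155 tested genes were called higher), at 1065 ± 256 CPM (SD, n = 4) against 447 ± 17.6 (SD, n = 3), while Tectb had a log2 fold change of -1.39 (SE 0.27, edgeR adjusted p = 0.0348). The summed CPM of 13 macrophage markers, all detected, ran from 1145 to 1877 in Gent+Fos OE and from 2051 to 2597 in Gent, a ratio of means of 0.628 (2-sided exact permutation test over the libraries, p = 0.0571). None of the 13 was called by edgeR, 9 were lower at an unadjusted p under 0.05 (13.4% of all tested genes were), and the median log2 fold change was -0.66. The summed CPM of 4 melanocyte markers ran from 29.6 to 35.3 in Gent+Fos OE and from 63.5 to 108 in Gent, and 2 of the 4 were called lower, beside 0.28% of all tested genes. The 6 T and NK cell markers summed to 0.704 to 1.46 CPM against 0.650 to 1.21, with Ncr1 at 0. Plasmacytoid dendritic cell markers, whose cells are a known source of interferon, summed to 8.60 to 12.0 CPM against 7.66 to 10.3. The 4 B cell markers, of which 3 were detected, summed to 1.35 to 2.89 CPM against 3.90 to 6.86, without overlap (2-sided exact permutation test, p = 0.0286). The summed neutrophil, endothelial, mesenchymal and Schwann cell markers each overlapped between the groups. The part of the supporting cell, macrophage, melanocyte and B cell signals in the lower interferon-stimulated genes was not tested.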

How the data were processed

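RNA sequencing libraries from pools of 12 utricles were compared, 4 Gent+Fos OE and 3 Gent, with groups taken from the sample labels. Per the file headers, the authors made the deposited counts with featureCounts 2.0.6 from exons of an mm10 annotation. No strand, multi-mapping or multi-gene option was set, and both reads of a pair were counted. The submitters' processing notes name Trim Galore 0.6.10 and HISAT2 2.2.1 before counting. The values are whole reads per gene and were not normalized. Symbols came from GENCODE and RefSeq tables, where both gave the same symbol for an identifier and its place (24643 genes), and 7892 genes have exonic bases in common with a further gene. All files of the 7 libraries were used, and Mx1 and Mx2 of the effector list were not analysed here.

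Genes were compared with edgeR 4.0.16 under R 4.3.3 (filterByExpr defaults, 17155 genes, TMM, quasi-likelihood test, no covariate). Benjamini-Hochberg adjusted p was taken over all tested genes, and the limits were 0.01 and an absolute log2 fold change of 0.25. DESeq2 1.42.0 and limma 3.58.1 (voom) were alternatives, with RLE and upper quartile scaling, no filter, a minimum of 10 counts, a loess correction for gene length (span 0.3), a replicate block with and without it, leaving out each library, and an adjusted p limit of 0.05. CPM values are TMM-normalized, and RPKM divides them by exonic length in kilobases. The labels call the samples biological replicates.

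The members and lists were chosen with earlier results of these data known. Named were all members, every called gene of the other interferon lists, paralogs and core factors, flanking genes with an unadjusted p under 0.05, Fos, and the 5 genes most similar to the members (mean of at least 1 CPM). Results of some of the listed genes are not given. Flanking genes were the nearest tested gene wholly to either side that was not a member. In simulated data with 100 genes changed by a log2 fold change of 1 and 100 by 2 (4 against 3 libraries), edgeR called 42 and 86 of them with 3 false calls among 16866 genes and DESeq2 65 and 88 with 20 among 17155, so changes of the size seen here could be missed. With totals of 27879889 to 34335214 counts, members held 240 to 22617 counts per library, and the spread between libraries set the precision.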

Additional observations from a re-analysis of the deposited data

Results flagged for a closer look

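A sample was singled out where its gap to the nearest library of its group of 4 was large against the range of that group, which chance gives in about 1 in 20 groups, and 23 sets of values were examined. Ifit3 in Gent+Fos OE replicate 4 stood at 25.27 CPM, below the 33.02 to 33.93 CPM of the other 3 libraries of its group and further from the Gent libraries than they were. Fos in Gent+Fos OE replicate 3 stood at 166.98 CPM, above the 148.83 to 151.14 CPM of the others. The cause of either value was not tested.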

How the results depend on the processing

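The log2 fold change of every member was negative in all 16 alternative fits, and the numbers of called genes moved. With all 7 libraries, edgeR called 71 genes in all, 6 members, 4 other effectors, 1 signalling gene, 1 conjugation gene and 0 flanking genes. DESeq2 called 600 genes in all, 14 effectors, 5 signalling, 2 conjugation and 1 flanking gene. An adjusted p limit of 0.05 gave 319, 14, 2, 2 and 1. No filter on low counts gave 204 genes in all, 10 effectors, 2 signalling and 2 conjugation genes, and the gene length correction gave 130, 9, 2 and 2. Leaving out 1 library gave 5 to 138 genes in all, 0 to 7 members, 0 to 10 effectors, 1 to 2 signalling genes and 0 to 1 conjugation gene, with fewer samples in the fit. The median log2 fold change of the members ran from -1.40 to -1.23 in these 7 fits.

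Libraries with the same replicate number had correlations of their deviations of -0.04 to 0.06, and those with other numbers of -0.06 to 0.04. With so few libraries these values cannot show whether the samples were paired. The labels name no shared batch. A replicate block gave 0 genes in all and in every list (edgeR). In that fit 3400 of all tested genes had an unadjusted p under 0.05, the 10 members among them, from which nothing is read because they were chosen on these libraries. With the block and the length correction together, 48 genes in all, 3 members, 2 effectors and 0 conjugation genes were called, and the members' median was -1.11. The cause of these shifts was not tested. Of the ligands, 7 had 0 counts, and the part of depth and of uncounted reads that fit several copies in this was not tested.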
